A study of Mus musculus with 65 samples.

Results

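The alpha-globin locus of the mouse was examined as all CTCF and TAL1 peaks in a window of 200 kb on chromosome 11 of mm10 (GRCm38), in every library of the series. The window runs from 126.4 kb upstream of the Hba-x start to 73.6 kb downstream of it, and peaks that reach into it were kept whole. It held 405 of the 544509 peaks. Peaks of a factor that shared at least 1 bp were merged into sites, which gave 28 sites of 108293 in all, namely 21 of 95140 CTCF sites and 7 of 13153 TAL1 sites. Sites are numbered along the chromosome, C1 to C21 for CTCF and T1 to T7 for TAL1.

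The peaks came from 53 ChIP-seq libraries, 34 of CTCF and 19 of TAL1. The cell line was G1E-ER4+E2, an erythroid progenitor line derived from embryonic stem cells that lacks GATA1, carries a GATA1 fusion switched on by estradiol, and was treated with estradiol for 24 h. All of its libraries share that treatment and that single line, and no untreated cells were analysed here. By the paper's account, starting cell number and fixation method varied among them. In it CTCF was mapped in 2 libraries that the submitters assessed as Low pass, 7 as Fail and 14 as Pass, and TAL1 in 4 Low pass, 5 Fail and 10 Pass libraries. CTCF was also mapped in bone marrow cells sorted from young C57BL/6 male mice, with progenitors gathered over many sorts. The erythroid ones were 1 CFUE library (Ter119+, CD44+, high forward scatter) and 2 ERY libraries (the same markers, low forward scatter), all Pass. The other primary ones were 2 LSK, 1 MEP, 1 CFUMk and 2 iMk libraries, all Pass, and 1 CMP and 1 GMP library, both Low pass. Nothing in the labels says that libraries of a group came from separate cultures, so p-values measure the spread between these libraries, which may be technical.

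The locus is arranged along the chromosome in the order in which its genes are used. Hba-x encodes the embryonic zeta-globin, Hba-a1 and Hba-a2 encode the adult alpha-globins, and Hbq1b and Hbq1a are theta-globin genes. The main enhancers of these genes lie upstream, most of them within introns of Nprl3, which encodes a subunit of the GATOR1 complex that restrains mTORC1. TAL1 is a basic helix-loop-helix protein that acts at erythroid enhancers, often in a complex with GATA1, while CTCF is a zinc finger protein that binds a long motif in an orientation and halts the extrusion of chromatin loops by cohesin. On the far side of the enhancers lie Mpg (a DNA glycosylase of base excision repair), Rhbdf1 (an inactive rhomboid protein), Snrnp25 (a protein of the minor spliceosome) and Il9r (the interleukin-9 receptor), and Sh3pxd2b (an adaptor of podosomes) begins at the other end.

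The letters under the CTCF sites are shown first because CTCF acts according to the strand of its motif. A CTCF matrix of 19 positions was learned from 2000 strong peaks of an LSK library outside chromosome 11, and its core read CCACNAGNGGGC. Each line gives the best match within 300 bp at the middle of the site, 5′ to 3′ on the strand of the match, with the match in capitals and 5 bases of GRCm38.p6 (RefSeq) on each side. The sites shown are those called in 14 or more libraries, which are the ones the comparisons turn on. C16 and C21 hold more than one stretch of peak middles and are split into left and right.
C3: cggccTCGCCACCAGGGGGCAGAGcatgc
C4: acagaTGGACAGTAGAGGGAGACAgagat
C10: ataaaTGACCACGAGGTGGCGCCAactgc
C13: ccctgAGGCCACCAGAGGGTAGCAgaggc
C16 right: acaagAGGCCGCCAGGGGGCGCTGcatcg
C18: acaagAGGCCGCCAGGGGGCGCTGcatcg
C19: tatagTGGCCTGCAGGGGGCGCCCcagag
C20: gagtcCCGCCACACGGGGGTGCTCgtcgc
C21 left: caatcTCTCCTGCAGGTGGCGCCCttccg
C21 right: tacacCAGCCTGCAGGGGGCACCAtggag

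Upstream of the globin genes both strands were found. C3 and C13 matched on the minus strand (chr11:32162355-32162373 and chr11:32238653-32238671), and C4 and C10 on the plus strand (chr11:32182695-32182713 and chr11:32217029-32217047). Downstream of Hba-x, C16, C18, C19 and C20 all matched on the minus strand, at chr11:32286930-32286948, chr11:32300035-32300053, chr11:32321391-32321409 and chr11:32324838-32324856. C21 was divergent, with its left match on the minus strand (chr11:32341290-32341308) and its right match on the plus strand (chr11:32342939-32342957). The 29 letters printed for C16 right and C18 were the same, and 291 of 300 letters around the matches were identical. These sites lie at the starts of the paired genes Hbq1b and Hbq1a. C12, which lies 1480 bp from C13, had no match past the threshold of 1e-04 per position (best score 6.77, threshold 7.25). Of the 18 stretches in sites called in at least 2 Pass libraries, 17 held a match at 1e-04 and 16 at 1e-05. Over all 31665 such CTCF sites of the genome 92.8% held a match at 1e-04, against 18.1% of windows 2000 bp to the right of them.

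The position of the matches relative to repeats was also counted. Of 7 stretches with a match that were called in 2 to 13 libraries, the match lay wholly in letters that the reference marks as repeats in 5, and of 10 called in 14 or more libraries in none. Over the genome the share was 22.9% of 16566 sites called in 2 to 13 libraries and 12% of 12811 called more often (1538 of them). There whole merged sites were counted, not stretches, so the units differ. Weaker stretches whose match lies in such letters are printed here beside the sites above, and C2 is the fifth of them.
C5: cttggAGGCCAGAAGAGGGCATCAgatct
C7: cagacTCACCAGAAGGGGGCATCAgatcc
C16 left: cagacAAACCAGAAGAGGGCATCAgatag
C17: cagacAAACCAGAAGAGGGCATCAgatag
The 29 letters of C16 left and C17 were the same, so these are not separate cases in the count above.

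The next lines show 120 bases of the plus strand at each of the 5 TAL1 sites between 30.6 and 7.2 kb upstream of Hba-x, where the erythroid enhancers lie. Capitals mark GATA motifs (AGATAA on either strand), E-boxes (CAGNTG on either strand), the CTG that lies 8 bases before AGATAA, and NF-E2 motifs (TGAGTCA on either strand).
T3: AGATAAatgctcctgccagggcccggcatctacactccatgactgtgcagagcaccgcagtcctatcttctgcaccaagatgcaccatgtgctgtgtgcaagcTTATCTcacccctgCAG
T4: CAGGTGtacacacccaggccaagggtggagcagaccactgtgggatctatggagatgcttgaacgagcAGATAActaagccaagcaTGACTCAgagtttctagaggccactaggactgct
T5: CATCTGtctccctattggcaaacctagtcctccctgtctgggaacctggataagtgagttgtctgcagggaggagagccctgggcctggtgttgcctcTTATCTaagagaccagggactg
T6: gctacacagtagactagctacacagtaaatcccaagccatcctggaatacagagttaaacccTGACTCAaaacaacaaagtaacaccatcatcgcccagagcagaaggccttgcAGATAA
T7: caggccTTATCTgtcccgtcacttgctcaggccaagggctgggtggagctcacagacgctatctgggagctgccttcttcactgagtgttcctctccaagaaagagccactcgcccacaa
The stretches are chr11:32245757-32245876, chr11:32251017-32251136, chr11:32256225-32256344, chr11:32265202-32265321 and chr11:32269128-32269247.

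Each of these 5 sites held AGATAA in its middle 300 bp, as did T1, while T2 held none. Over all 8604 TAL1 sites called in at least 2 Pass libraries 53.0% held it, against 15.7% of windows 2000 bp to the right. The CTG with AGATAA, the arrangement bound by TAL1 and GATA1 together, stood in T3 alone of the 7 sites, and in 10.3% of TAL1 sites of the genome against 0.453% of the windows beside them. TGAGTCA, the motif of NF-E2, stood with AGATAA in T4 and T6, and that pair was present in 3.94% of TAL1 sites and 0.802% of the windows beside them. E-boxes were found in T1, T4 and T5, and in 66.6% of TAL1 sites against 53.9% beside them. The KLF motif (CCNCNCCC) was found in T5 alone, where it lies outside the printed stretch, and in 29.3% of TAL1 sites. Promoters of 10 genes of the window were found in RefSeq (300 bases each, GRCm38.p6). Those of Hba-x, Hba-a1, Hba-a2 and Nprl3 held no AGATAA and no CTCF match, those of Hbq1b and Hbq1a held a CTCF match, and that of Il9r held AGATAA at 2 places and a CTCF match. No match says only that these letters are not in the window searched.

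TAL1 sites lay upstream of the globin genes. T3 (chr11:32245221-32246426), T4 (chr11:32250545-32251607), T5 (chr11:32255716-32256955) and T6 (chr11:32264751-32265831) lay in introns of Nprl3, and T7 (chr11:32268607-32269798) between Nprl3 and Hba-x. Their middles were 30.6, 25.3, 20.1, 11.1 and 7.2 kb upstream of the Hba-x start. The files do not name these elements, but their order and spacing are those of the known mouse enhancers R1, R2, R3, Rm and R4. T1 (chr11:32199952-32200902) lay 117 bp upstream of the Il9r start and T2 (chr11:32201515-32202074) farther out. None of the 7 sites lay downstream of the Hba-x start. At the adult genes that absence is uncertain: 84.9% of the words of 50 letters within 500 bp of the Hba-a1 start and 91.2% of those at Hba-a2 occur more than once in the window, and the treatment of reads with several matches is not given in the sources used here. At the Hba-x start no such word was repeated.

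T3 stood above the other TAL1 sites in every Pass library. Strength is given as a rank percentile, the place of the peak by −log10 p among all peaks of its library, with 100 for the strongest. In the 10 Pass libraries T3 ranked 97.9 at the lowest, 99.4 at the median and 99.7 at the highest, and its median was number 24 of the 8604 recurrent TAL1 sites of the genome. T6 followed with 85.2, 89.8 and 97.1, T5 with 62.6, 86.5 and 95.4, and T7 with 56.1, 81.0 and 92.3. The ranges of T5, T6 and T7 overlapped, so their order is not fixed by these libraries. T4 was called in 9 of 10 Pass libraries with ranks of 11, 60.7 and 78.2, and T1 in all 10 with 25.9, 47.8 and 78.8. T2 was called in 2 Pass libraries, at ranks of 1.90 and 6.79. All 7 TAL1 sites were called in at least 2 Pass libraries, as were 65.4% of TAL1 sites of the genome. T1, T3, T5, T6 and T7 were called in every Pass library, 5 of 7 sites, a rule met by 21.8% of the recurrent TAL1 sites of the genome. The window held 7 recurrent TAL1 sites, and 1.35% of 13602 stretches of 200 kb held as many. It was chosen for the enhancers it holds, so a high count was likely beforehand.

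**Figure D1:**
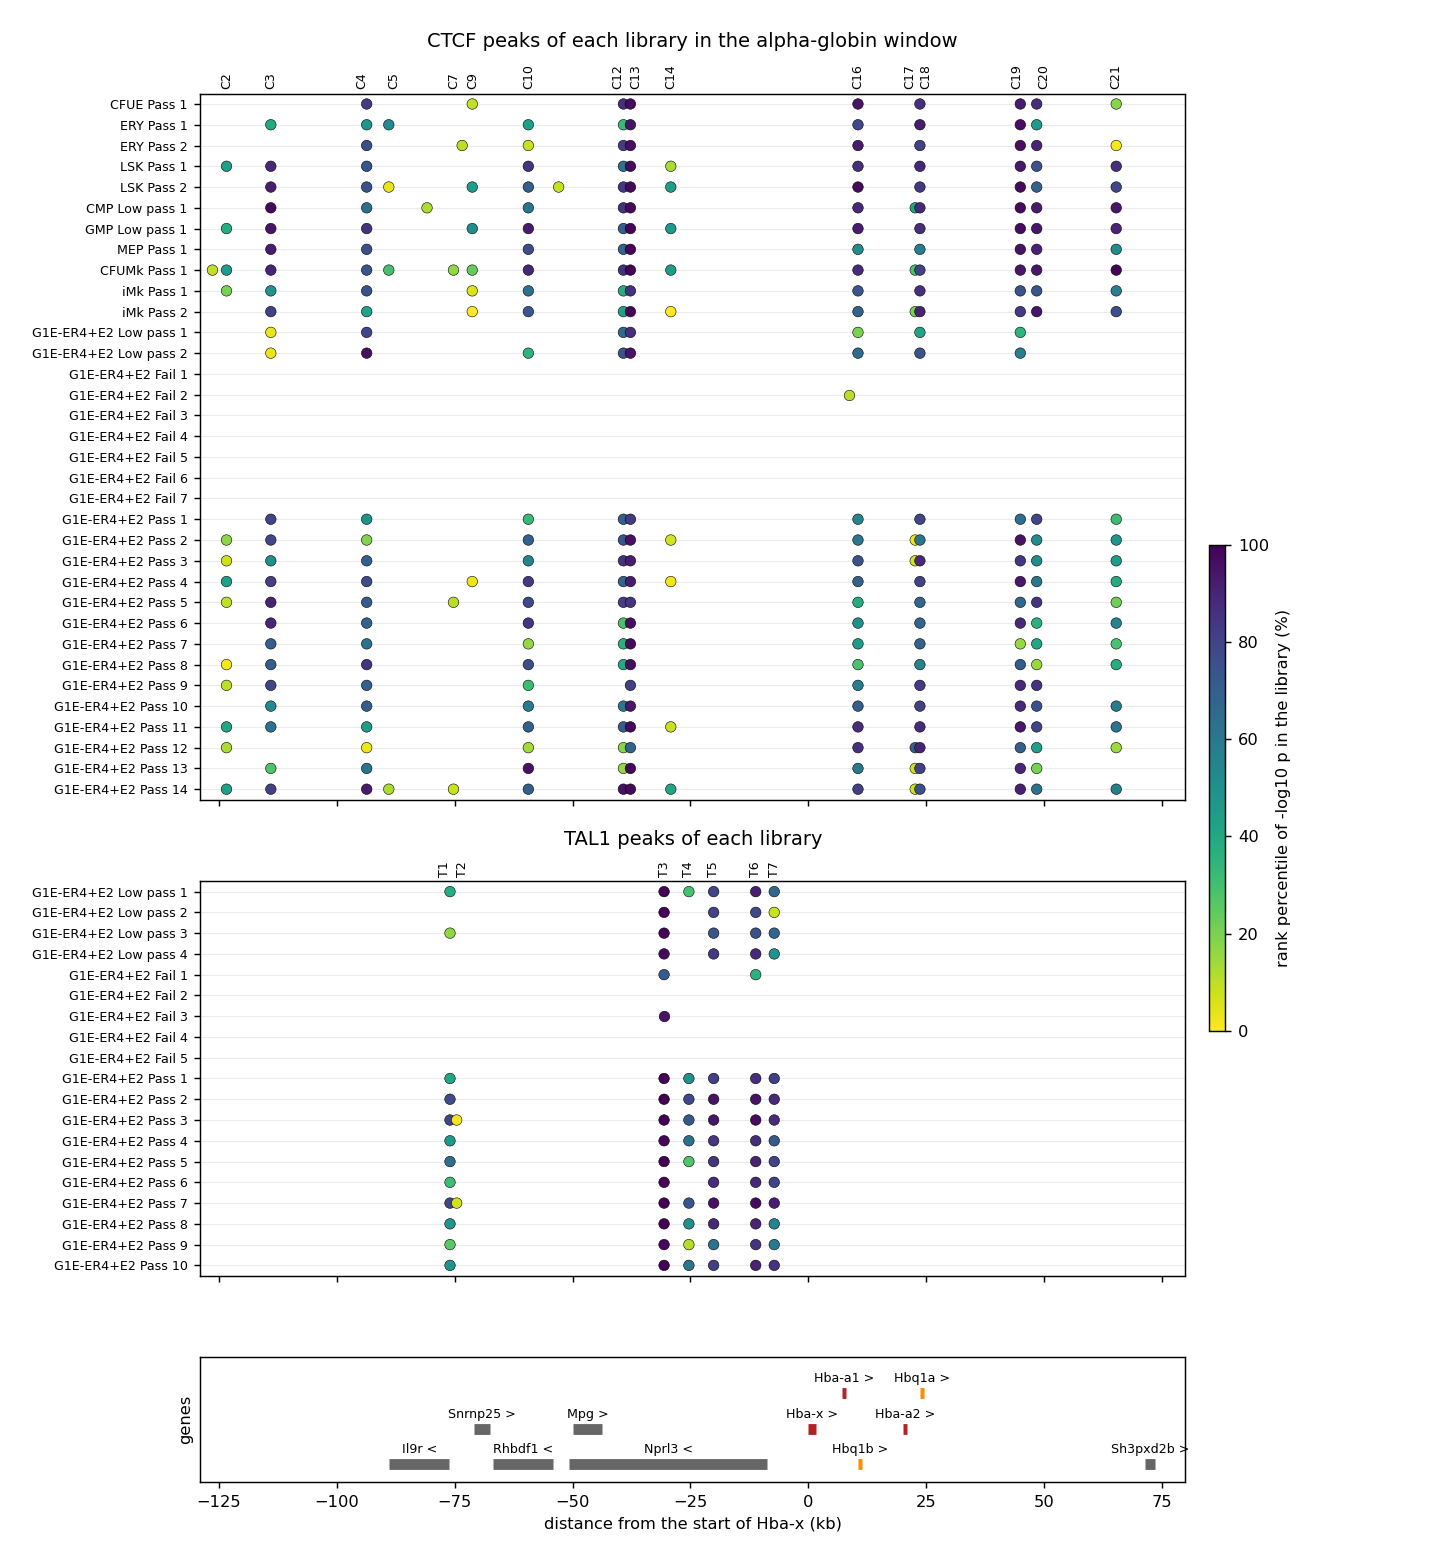
Peaks of every library along the locus, with distance from the start of Hba-x in kb on the horizontal axis, 1 line per library (CTCF above, TAL1 below) and a point at the middle of each merged site in which that library has a peak. Colour gives the rank percentile of −log10 p within the library and bars at the bottom are genes with their direction; T3 to T7 lie between 30.6 and 7.2 kb upstream of Hba-x, C13 at 37.7 kb upstream, and 1 of the 7 CTCF Fail libraries has a point, at C15.

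T3 was also the site that lasted longest as libraries weakened. In the 4 Low pass libraries its fold enrichment over background was 39.3, 36.9, 28.5 and 21.1, at ranks of 98.9, 99.2, 99.2 and 97.4. In the 5 Fail libraries it was called in 2, with fold enrichments of 6.27 and 57.6 and ranks of 72.5 and 94.9. In the Pass libraries its fold enrichment was 33.6 at the lowest, 61.0 at the median and 123 at the highest, so Low pass and Pass libraries overlapped in fold and in rank. T6 was called in all 4 Low pass libraries and in 1 Fail library, and T5 and T7 in all 4 Low pass and no Fail libraries. T7 ranged from a rank of 7.88 to 67.7 in Low pass libraries, below the Pass median of 81.0. T1 was called in 2 Low pass libraries and T4 in 1, and neither in a Fail library. In every Low pass library 4 of 7 TAL1 sites were called (T3, T5, T6 and T7), against 9.77% of recurrent TAL1 sites of the genome. In at least 1 Fail library 2 of 7 TAL1 sites were called, against 4.95% of recurrent TAL1 sites of the genome.

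**Figure D2:**
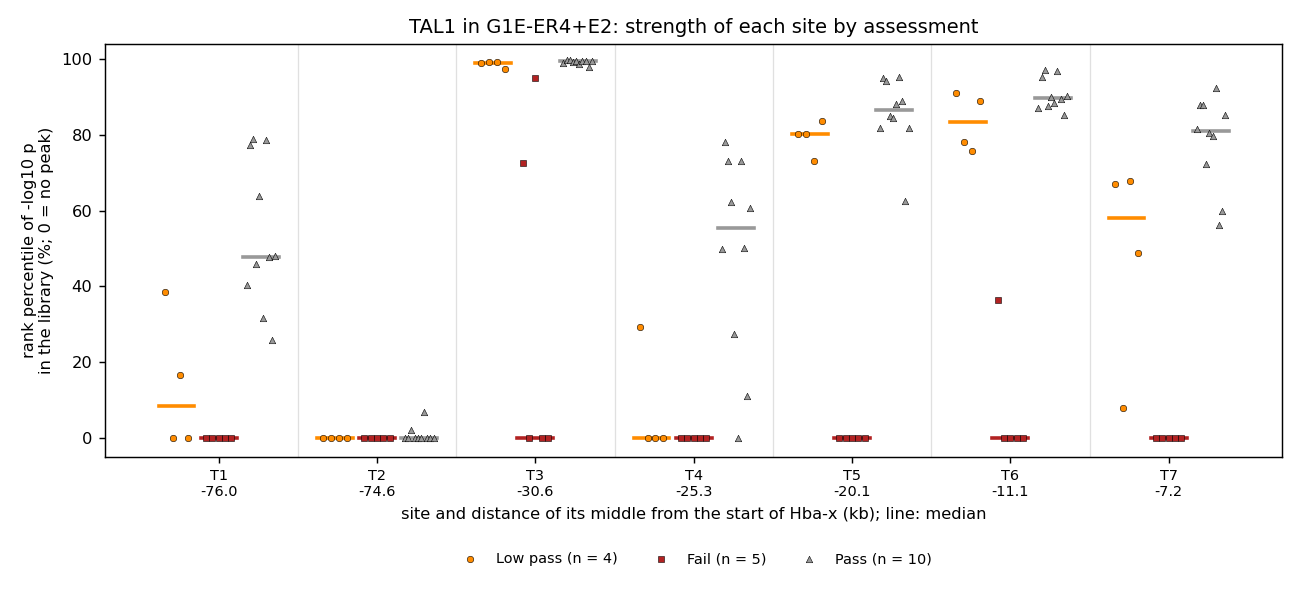
Rank percentile of −log10 p at each TAL1 site in G1E-ER4+E2, with 1 point per library (0 where it has no peak) and a line at the median of Low pass, Fail and Pass libraries; numbers under the site names are kb from the Hba-x start. T3 is above 97 in every Low pass and Pass library, and T1, T4, T5 and T7 are at 0 in every Fail library.

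The number of TAL1 peaks differed between assessments. Over every peak of the window, Low pass or Fail libraries had a mean of 2.44 and Pass libraries 6.10, a difference of -3.66 (exact two-sided permutation test, p = 0.000184). The count was also made over recurrent sites, those called in at least 2 other Pass libraries, so that T2 counted for none and 6 is the most a library could have. That choice of sites rests on Pass libraries and so favours them. Low pass or Fail libraries had 2.44 ± 2.35 sites (SD, n = 9) and Pass libraries 5.90 ± 0.316 (SD, n = 10). The difference was -3.46 sites (exact two-sided permutation test over 92378 arrangements, p = 0.000227, adjusted p = 0.000606 over 8 library comparisons). Libraries were judged by their signal at well studied loci, so assessment and calls are not independent. Site by site, with Fisher's exact test and Benjamini-Hochberg adjustment over all 13153 TAL1 sites, 4 of the 7 sites were called less often in Low pass or Fail libraries, against 24.8% of TAL1 sites of the genome. They were T1 (2 of 9 Low pass or Fail and 10 of 10 Pass libraries, adjusted p = 0.00850 by Fisher's exact test), T4 (1 of 9 and 9 of 10, adjusted p = 0.0104), T5 and T7 (each 4 of 9 and 10 of 10, adjusted p = 0.0437). T3 was called in 6 of 9 and 10 of 10 (adjusted p = 0.209, Fisher's exact test) and T6 in 5 of 9 and 10 of 10 (adjusted p = 0.0999), which did not pass. With peaks of −log10 p of 10 or more, T6 passed as well (adjusted p = 0.0358, Fisher's exact test). The 24.8% is a share of all merged TAL1 sites, and those called in a single library cannot pass. All 7 sites here are recurrent, and the share over recurrent sites of the genome was not counted.

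CTCF sites flanked the TAL1 cluster and the genes on both sides. C13 (chr11:32238093-32239306) and C12 (chr11:32236522-32237719) lay 37.7 and 39.2 kb upstream of Hba-x, in introns of Nprl3, between the TAL1 sites and the promoters of Mpg and Rhbdf1. They fall where boundary elements of the locus are known in mouse erythroid cells, a correspondence by position only. On the gene side, C16 (chr11:32285603-32287643) had its middle 13 bp upstream of the Hbq1b start and C18 (chr11:32299568-32300830) 21 bp inside Hbq1a, in an exon, so that a CTCF site stood downstream of each adult alpha-globin gene. C19 (chr11:32320836-32322041) and C20 (chr11:32324311-32325443) lay 45.0 and 48.5 kb downstream of Hba-x between genes, and C21 (chr11:32340560-32343540) 6079 bp upstream of the Sh3pxd2b start. On the other side, C10 (chr11:32216433-32217583) lay in an intron of Rhbdf1, and C4 (chr11:32182244-32183191) and C3 (chr11:32161788-32163021) lay beyond Il9r. C15 (chr11:32285044-32285173), between Hba-a1 and Hbq1b, had a peak in 1 Fail library and in no other. Of words of 50 letters, 677 of 1992 in C16 and 25.3% in C18 occur more than once in the window, so their reads could be split between the copies and their values are uncertain. In C13, C19 and C20 no such word was repeated.

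A core of CTCF sites was called in all kinds of cell. Of the 21 sites, 16 were recurrent, where 33.3% of CTCF sites of the genome are. C4, C13, C16, C18 and C19 each had a peak in all 27 Pass and Low pass libraries, and so shared every library. That is 5 of 16 recurrent sites, a rule met by 5.80% of the 31665 recurrent CTCF sites of the genome. With C20 they make 6 of 16 called in every Pass library of the line and every primary library, against 7.87% of the genome. In every Pass library of the line 7 of 16 were called, with C10 the seventh, against 17.9%, and in both of its Low pass libraries 7 of 16 (C3, C4, C12, C13, C16, C18 and C19), against 13.8%. C12 was called in 26 of the 27, and C10 and C20 in 25 each. C3 was called in 24, and C21 in 22. The remaining recurrent sites were called in 3 to 13 libraries, and 5 of the 21 sites (C1, C6, C8, C11 and C15) in 1 library each. The window held 16 recurrent CTCF sites, and 0.265% of 13602 stretches of 200 kb held as many. It was chosen as a stretch with known flanking CTCF sites, so a high count was likely beforehand.

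C13 was the strongest CTCF site of the window by its median rank. In the 11 primary libraries it ranked between 85.9 and 99.1, and in the 14 Pass libraries of G1E-ER4+E2 at 68.5, 94.7 and 97.7 (lowest, median and highest). Its fold enrichment was 19.9, 26.1 and 85.2 in the 9 primary Pass libraries and 13.4, 20.2 and 53.4 in the line. Its median rank over Pass libraries was number 350 of 31665 recurrent CTCF sites. C19 came next, at 74.3, 94.4 and 97.6 in the 9 primary Pass libraries and 16, 88.3 and 95.3 in the cell line. C18 ranked 57.3, 86.0 and 92.3 in primary Pass libraries and 55.2, 79.6 and 90.1 in the line, and C16 51.6, 86.8 and 97.6 in primary Pass libraries and 28.9, 60.6 and 87.6 in the line. The ranges of C18 and C16 overlapped within each kind of cell. C20 ranked 45.4, 86.9 and 94.5 in primary Pass libraries and 15.4, 56.4 and 85.5 in the line, and C4 42.3, 74.3 and 82.6 in primary Pass libraries and 2.71, 69.0 and 92.6 in the line. C12, the neighbour of C13 that lacked a motif match, ranked 32.8, 67.8 and 86.0 in primary Pass libraries and 16.2, 67.8 and 95.6 in 13 of the 14 line libraries.

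The recurrent sites called in 3 to 13 libraries had a wide spread of ranks where they were called. C14 in Nprl3, 383 bp from T3, ranked 0.710 to 44.8 in 4 primary Pass libraries and 2.20 to 40.8 in 4 Pass libraries of the line. C17, 975 bp upstream of the Hbq1a start, ranked 20.4 and 28.5 in 2 primary Pass libraries and 2.38 to 69.9 in 5 of the line. Of the words of 50 letters in C17, 43.7% occur more than once in the window, so its values are uncertain too. C7, which touches the Il9r promoter site T1, ranked 16.5 in 1 primary Pass library and 8.18 and 10.2 in 2 of the line. C5 ranked 3.23 to 52.5 in 3 primary Pass libraries and 12.2 in 1 of the line.

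The number of sites called in primary cells and in the cell line was compared next. Primary Pass libraries had 11.6 ± 2.30 recurrent CTCF sites (SD, n = 9) and G1E-ER4+E2 Pass libraries 11.3 ± 1.64 (SD, n = 14), a difference of 0.270 (exact two-sided permutation test over 817190 arrangements, p = 0.826, adjusted p = 0.826). Site by site, 0 of 19 sites passed Fisher's exact test with Benjamini-Hochberg adjustment over 49407 CTCF sites, against 2.59% of sites of the genome called more often in primary cells and 0.326% called less often. At an unadjusted p of 0.05 or less there was 1 site, C9 (chr11:32204693-32205542), 298 bp upstream of the Snrnp25 start. It was called in 5 of 9 primary and 1 of 14 line libraries (p = 0.0183, adjusted p = 0.202, Fisher's exact test). C2 went the other way, with 3 of 9 primary and 9 of 14 line libraries (p = 0.214, adjusted p = 0.573, Fisher's exact test). Sorting, fixation and cell number differed between primary cells and the line along with the cell source, and these cannot be told apart.

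**Figure D3:**
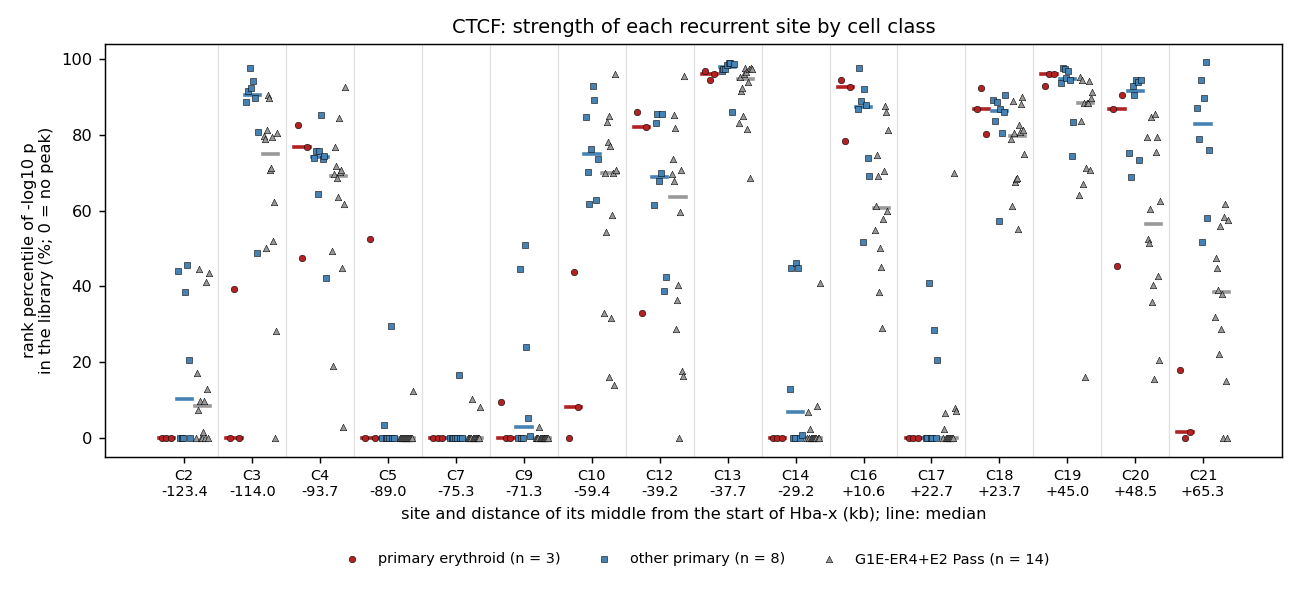
Rank percentile of −log10 p at each of the 16 recurrent CTCF sites, with 1 point per library (0 where it has no peak) and a line at the median of primary erythroid, other primary and G1E-ER4+E2 Pass libraries; numbers under the site names are kb from the Hba-x start. C13 and C19 are high in all 3 kinds of cell, while at C3, C10 and C21 the erythroid points lie below every other primary point.

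Within primary cells, the ranks of erythroid libraries lay below those of all other primary libraries at C3, C10 and C21, in lists of unequal length. The CFUE and ERY lists hold 11990, 8284 and 6629 peaks, and the other primary lists 15002 to 36481. At C3 the ERY replicate 1 library ranked 39.2 and the CFUE and ERY replicate 2 libraries had no peak, against 48.7 to 97.6 in all 8 other primary libraries. At C10 the ranks were 43.7 and 8.20 in ERY and none in CFUE, against 61.7 to 93.0 in the other primary libraries. At C21 they were 17.8 in CFUE, 1.46 in ERY replicate 2 and none in ERY replicate 1, against 51.7 to 99.2 at the strongest peak of each other primary library. In each of these 3 sites the groups did not overlap, and the exact permutation test of the rank gave p = 0.00606, the smallest that 3 libraries against 8 allow. None passed adjustment over the 63183 CTCF sites (adjusted p = 0.0945 at each), and no site of the genome did. At an unadjusted p of 0.05 or less, the 3 sites are 15.0% of the 20 tested. At that threshold 13.5% of CTCF sites of the genome were lower in erythroid cells and 0.0981% higher, so the share in the locus was near the background. How many sites of the genome had groups without overlap, or a p of 0.00606, was not counted.

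With lists of equal length only C3 of these sites kept an unadjusted p of 0.05 or less. In the full lists C3 was called in 1 of 3 erythroid and 8 of 8 other primary libraries. C10 and C21 were each called in 2 of 3 and 8 of 8. The shorter lists hold fewer calls at each of these sites, so a larger p need not be a smaller difference. When each library was reduced to its strongest 5000 peaks and ranked among them, an alternative added after the data were seen, C3 was called in 0 of 3 erythroid and 7 of 8 other primary libraries (exact permutation p = 0.0485, adjusted p = 0.353). C10 was called in 1 of 3 and 4 of 8 (exact permutation p = 0.333) and C21 in 0 of 3 and 4 of 8 (exact permutation p = 0.321). C4, C16 and C18 then had higher mean ranks in erythroid libraries, at 46.8, 80.5 and 76.5, against 3.55, 29.3 and 27.4 in other primary libraries (exact permutation p = 0.0121, 0.0364 and 0.0182), and no site passed adjustment (lowest adjusted p = 0.204). With C3 these make 4 of the 11 sites of the window tested on the shorter lists at an unadjusted p of 0.05 or less. The share over the genome was not counted for lists of this length, so whether the locus stands out is not known. What the length of the lists contributes to either result was not tested further.

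In the full lists the other sites called in all 11 primary libraries gave p above 0.3. C4 averaged a rank of 69.0 in primary erythroid and 70.7 in other primary libraries (exact permutation p = 0.927), C20 74.3 and 85.4 (exact permutation p = 0.345), C16 88.5 and 81.0 (exact permutation p = 0.455), C18 86.4 and 82.8 (exact permutation p = 0.648), C19 95.0 and 91.6 (exact permutation p = 0.655), C13 95.9 and 96.6 (exact permutation p = 0.824) and C12 67.0 and 66.8 (exact permutation p = 0.988), with n = 3 and n = 8 in each. A p of this size does not show that they are equal, since 3 libraries carry the erythroid side.

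C21 consisted of 2 stretches, and not every library that called it had a peak in both. It held 34 peaks in 22 libraries, with the left stretch called in 17 and the right in 16. When only the middle 200 bp of each peak were merged, its right stretch (chr11:32342666-32343215) had a peak in 0 of 3 erythroid and 7 of 8 other primary libraries (exact permutation p = 0.0242, adjusted p = 0.247) and in 9 of 14 Pass libraries of the line. The eighth, CFUMk, had 1 peak of 2981 bp over both stretches. Its left stretch (chr11:32341073-32341532) was called in 2 of 3 erythroid and 7 of 8 other primary libraries (exact permutation p = 0.0303, adjusted p = 0.283). In the same analysis C16 had a left stretch at chr11:32285910-32286167, called in 1 of 9 primary and 3 of 14 line Pass libraries.

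By number, primary erythroid libraries had 9.33 ± 0.577 recurrent CTCF sites (SD, n = 3) and other primary libraries 12.5 ± 1.77 (SD, n = 8), a difference of -3.17 (exact two-sided permutation test, p = 0.0303, adjusted p = 0.0485). Over every peak of the window it was -4.21 (p = 0.00606, exact permutation test). With the strongest 5000 peaks of each library the difference turned to 0.750 (p = 0.673, exact permutation test), with 7.00 sites in erythroid and 6.25 in other primary libraries. Without CFUE, ERY replicate 2, LSK replicate 2, GMP or iMk replicate 2 it no longer passed an unadjusted p of 0.05 (differences from -3.10 to -3.00).

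CTCF peaks at the locus were fewer in the Low pass or Fail libraries of G1E-ER4+E2. Over every peak of the window these had a mean of 1.78 and Pass libraries 11.9, a difference of -10.1 (exact two-sided permutation test, p = 1.22e-06). Over recurrent sites, a choice that rests on Pass libraries, Low pass or Fail libraries had 1.67 ± 3.32 recurrent CTCF sites (SD, n = 9) and Pass libraries 11.3 ± 1.64 (SD, n = 14), a difference of -9.62 (exact two-sided permutation test over 817190 arrangements, p = 1.22e-06, the smallest it can give, adjusted p = 9.79e-06). All 7 Fail libraries had 0 recurrent sites, the Low pass libraries 7 and 8, and the Pass libraries 9 to 15. At the level of sites, 0 of 16 recurrent CTCF sites were called in any Fail library, where 6.82% of recurrent CTCF sites of the genome were. Fail lists were not all short: replicates 2 and 7 held 17343 and 9218 peaks, of which 4.65% and 1.51% lay in recurrent CTCF sites, against 87.1% to 99.9% of the peaks of Pass libraries of the line.

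With Fisher's exact test and adjustment over 56684 CTCF sites, 11 of 17 sites were called less often in Low pass or Fail libraries, against 22.1% of CTCF sites of the genome. They were C2, C3, C4, C10, C12, C13, C16, C18, C19, C20 and C21. The 22.1% is a share of all merged CTCF sites with a call, and those called in a single library cannot pass. All of the 17 sites but C15 are recurrent, and the share over recurrent sites of the genome was not counted. C20 had 0 of 9 Low pass or Fail and 14 of 14 Pass calls (adjusted p = 0.000127, Fisher's exact test), C10 1 of 9 and 14 of 14 (adjusted p = 0.000371), and C13, C16, C18, C19 and C4 each 2 of 9 and 14 of 14 (adjusted p = 0.00126). C2 had 0 of 9 and 9 of 14 (adjusted p = 0.0135, Fisher's exact test). With peaks of −log10 p of 10 or more, C2 and C12 did not pass (adjusted p = 0.398 and 0.103, Fisher's exact test). Nor did they without Fail replicates 2, 3 and 4 and Pass replicate 12, an alternative added after the data were seen (adjusted p = 0.0624 at each, Fisher's exact test). These are the libraries known to be of the pilot, and 1 of the libraries of 248 bp that were kept may belong to it too. In the 2 Low pass libraries the order of the sites was not that of the Pass libraries: C4 ranked 78.9 and 96.2 and C13 86.6 and 94.8, while C3 ranked 3.33 and 2.96, against a Pass median of 78.8.

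The length to which chromatin was sheared is given in the labels as the mean size of the chromatin before immunoprecipitation. By the paper's account the average covers a fixed size range and leaves out larger fragments. Length was compared without the pilot libraries of 302 and 329 bp. Which of the 2 CTCF libraries of 248 bp belongs to the pilot is not given in the labels, and both were kept (Pass replicates 3 and 13). With chromatin under 200 bp, CTCF libraries had 3.43 ± 4.31 sites (SD, n = 7), against 11.7 ± 1.66 with 200 to 250 bp (SD, n = 9), a difference of -8.24 (exact two-sided permutation test, p = 8.74e-05, adjusted p = 0.000350). Over every peak of the window, with no choice of sites, the difference was -9.02 (p = 8.74e-05, exact permutation test). The shorter group held 0 to 9 sites and the other 10 to 15, so they did not overlap. With chromatin over 250 bp they had 11 ± 1.73 (SD, n = 3), a difference of -0.667 from 200 to 250 bp (exact permutation test, p = 0.691, adjusted p = 0.790). With the pilot libraries of 302 and 329 bp, which had 11 and 0 sites, that difference was -2.87 (exact permutation test, p = 0.134). For TAL1 the values were 2.50 ± 2.38 sites under 200 bp (SD, n = 4) and 6.00 ± 0 at 200 to 250 bp (SD, n = 6), a difference of -3.50 (exact two-sided permutation test, p = 0.00476, the smallest its 210 arrangements allow, adjusted p = 0.00952), and over every peak of the window -3.67. Over 250 bp TAL1 libraries had 3.89 ± 2.57 sites (SD, n = 9), a difference of -2.11 from 200 to 250 bp (exact permutation test, p = 0.0859, adjusted p = 0.115). All libraries of 200 to 250 bp were assessed as Pass, so length and assessment cannot be told apart in them. The paper also reports different fixation methods among the retrospective libraries. It names another fixative for several successful TAL1 libraries of longer chromatin. Starting cell number varied in the line too, and neither was separated from length here.

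Positions shared by CTCF and TAL1 in the locus were counted as well. T1 shared 118 bp with C7, a weak CTCF site called in 3 libraries, and T3 lay 383 bp from C14, called in 9. Thus 1 of 7 TAL1 sites touched a CTCF site of the line, where 6.53% of recurrent TAL1 sites of the genome did. A count of 1 site is too small to compare the locus with the genome. The most alike TAL1 sites were T5 and T7, which were called in the same 14 libraries, and T3 and T6 shared 15 of 16.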

How the data were processed

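ChIP-seq peak lists of 34 CTCF and 19 TAL1 libraries were used; library depth is not in them. The authors mapped reads to mm10 with Bowtie (1.0.0 in the submitters' notes, another version in the paper's methods) and called peaks per library with MACS, mostly against an input pooled from several libraries of the line. The deposited fold enrichment (a ratio over background) and the deposited −log10 p, never below 5.0, were used as given. The p cutoff and the treatment of reads with several matches are not given in the sources used here. Depth can shift both values, so peaks were ranked within libraries. A rank also depends on how many peaks the list holds, so ranks in lists of unequal length are not strictly comparable. Groups came from the submitters' labels. Library counts were compared with exact permutation tests, sites with Fisher's exact test or permuted ranks over the whole genome, and Benjamini-Hochberg adjustment was used. Tests were tested on simulated data. Genes are from GENCODE and sequences from GRCm38.p6; the last peak of each of 21 chromosomes lay inside it. All genes and sites of the window were named. One TAL1 library (Pass replicate 10) has an antibody label of CTCF; 96.0% of its 4486 peaks lay in TAL1 sites and 5.57% in CTCF sites of other Pass libraries, so it was kept as TAL1. Lists held 193 to 36481 peaks. The window, members and gene lists were chosen with earlier results of these data known. Python 3 with pandas, scipy and pysam was used.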

Additional observations from a re-analysis of the deposited data

Results flagged for a closer look

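Of 12 groups of 4 to 10 libraries checked for a value far from the rest, 4 were marked, and chance marks about 1 in 20. Among the TAL1 Pass libraries, replicate 6 had 5 recurrent sites where the others had 6, since it lacked T4. At T3, Low pass replicate 4 had a rank percentile of 97.4 and Pass replicate 9 one of 97.9, both below the rest of their group. At T5, Pass replicate 9 had a rank percentile of 62.6, the lowest of the 10.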

How the results depend on the processing

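Of 214 recomputed values, 204 were labelled as unchanged. For differences between libraries this means the same direction and the same side of an unadjusted p of 0.05. For per-site counts it means only a count of similar size, and single sites could still cross the threshold. Some settings repeated the main computation (the overlap of at least 50% of the site or the peak) or each other. The 214 are therefore not separate checks. In the study libraries alone (1 Low pass and 10 Pass, of which 1 of 248 bp may be of the pilot), the CTCF difference of Low pass or Fail from Pass was -4.00 (exact permutation p = 0.0909, the smallest 1 library against 10 can give). With the strongest 5000 peaks of each library, the CTCF difference of over 250 bp from 200 to 250 bp was 0.111 and that of primary erythroid from other primary cells 0.750. With sites of at least 50% of the other Pass libraries, primary minus G1E-ER4+E2 was -0.468. The cause was not tested. Leaving out 1 library at a time gave -3.52 to -2.67 for primary erythroid minus other primary cells and -0.286 to 0.589 for primary minus G1E-ER4+E2, with the sign turned without CFUMk (-0.286). Per-site counts ran from 9 to 12 for CTCF and from 4 to 5 for TAL1 between Low pass or Fail and Pass. No paired analysis was possible because the numbers of the libraries only name them and are not shared between groups by culture or day. Depth is unknown, so a site without a peak was not detected at the depth of its library, and 3 erythroid libraries limit that comparison.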
